A study of Mus musculus with 36 samples.

Results

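The genes described here are 10 members of the ATF4 arm of the integrated stress response, taken by symbol from the expression table of mouse heart RNA: Atf4, Ddit3, Trib3, Asns, Chac1, Fgf21, Gdf15, Mthfd2, Psat1 and Phgdh. They are 10 of 55291 gene symbols in the table. All 10 were found, and 9 passed the filter on low counts that left 19231 genes to test. The exception was Fgf21.

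The integrated stress response starts when kinases phosphorylate the translation factor eIF2α under amino acid shortage, misfolded protein, viral RNA or heme shortage. General translation then slows while translation of the Atf4 mRNA rises, so ATF4 is largely controlled after transcription. ATF4 protein, a basic leucine zipper transcription factor, induces genes for amino acid uptake and synthesis, tRNA charging and one-carbon metabolism, together with feedback regulators and secreted hormones. In heart muscle this programme is known from models of mitochondrial dysfunction, in which Fgf21, Gdf15 and the mitochondrial folate enzymes are among its best-known products.

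The mice were CUG960, which are bitransgenic for TREDT960I (Hom) and MHCrtTA (Hemi). One transgene is a repeat construct, with interrupted CUG repeats set in human DMPK sequence, that rtTA switches on when doxycycline (dox) is present. The other supplies rtTA through the α-MHC promoter, which limits the repeat RNA to cardiomyocytes. There were 6 cohorts. The +dox mice received dox from postnatal day 1, the –dox mice received none, and the +/–dox mice were taken off dox at 9 weeks of age. Dox-fed mice given AAV9 at 9 weeks formed the other cohorts: the vector carried 3XFLAG-tagged MBNL1 in the MBNL1 cohort, 3XMYC-tagged MBNL2 in the MBNL2 cohort, and MBNL1+MBNL2 mice received both. Each human cDNA was driven by the human TNNT2 promoter. All carried both transgenes and were collected at 21 weeks. Left ventricle and atria were each sequenced in 3 biological replicates per cohort, which gives 36 libraries. The study's sample list names the same mice for both chambers of a cohort, so ventricular and atrial libraries are not independent, and the labels do not say which replicate number is which mouse. In that list the MBNL1+MBNL2 mice were all male and each other cohort held both sexes. Sex thus differs between MBNL1+MBNL2 and the cohorts it is compared with, and the labels do not give the sex of a library. Each –dox or +/–dox comparison with +dox changes both the repeat RNA and dox feeding at collection, and the effects of these cannot be told apart here. A cohort given a vector without MBNL was not analysed here, so MBNL and vector delivery cannot be told apart either.

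Totals were 55031987 to 97091184 estimated counts per library. The ventricular MBNL1 replicate 1 library stood apart, with 16885 genes counted against up to 24041 in other libraries and a quality weight of 0.115, the lowest of all 36. As sums, the chamber markers followed the labels. The summed level of 4 ventricular markers (Myl2, Myh7, Irx4 and Myl3) was 19971 to 28116 TPM (the deposited level scaled for transcript length and library total) in ventricles and 288 to 1104 TPM in atria, and that of 4 atrial markers (Myl7, Sln, Nppa and Bmp10) was 31212 to 51242 TPM in atria and 81.6 to 809 TPM in ventricles. Of the ventricular list, only Myh7 did not separate the chambers, at 194 to 449 TPM in ventricles and 206.5 to 342 TPM in atria. It had the highest atrial median of that list, at 283 TPM against 70.7 TPM for Myl2. Atrial sums of the ventricular list, here and below, thus include a gene that does not mark the chamber. The vectors carry human cDNAs, so the counts on mouse genes are no check of the MBNL labels. Leading digits in the library names split the samples into 2 sets. The smaller set holds all MBNL1+MBNL2 libraries and replicate 3 of each other cohort, and what the digits stand for is not given in the sources used here. In whole tissue, fewer cells of a type and less RNA per cell cannot be told apart.

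ATF4 binds the C/EBP-ATF response element together with a C/EBP partner. The core TGATGNAA was searched on both strands of the RefSeq promoter windows of the members (GRCm38.p6, 250 bases before to 50 bases after each annotated start), in order to show where a readable ATF4-type element lies near the start of these genes. It was present for 4 of the 10 members, against 4.51% of 27025 genes with such windows. The 30 bases around each match follow, 5′ to 3′ on the strand of the gene, with the match in capitals.
Asns (chr6:7693214-7693243, minus strand): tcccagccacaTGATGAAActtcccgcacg
Chac1 (chr2:119351038-119351067, plus strand): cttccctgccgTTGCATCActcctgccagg
Fgf21 (chr7:45615611-45615640, minus strand): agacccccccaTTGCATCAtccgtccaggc
Trib3 (chr2:152344028-152344057, minus strand): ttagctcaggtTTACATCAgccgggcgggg
The Asns match lay on the promoter strand, starting 23 bases upstream of the RefSeq start. The other matches lay on the opposite strand, where the capitals read as the reverse complement of the core. Those in Chac1 and Fgf21 began 193 and 139 bases upstream, and that in Trib3 lay just downstream of the RefSeq start. The windows of Atf4, Ddit3, Gdf15, Mthfd2, Psat1 and Phgdh did not hold these letters. RefSeq starts differ in part from the gene spans given below, which come from GENCODE. By those spans the Asns match lies inside the gene and the Trib3 match upstream of it. The Mthfd2 window (chr6:83317555-83317854) and the Psat1 windows lie inside their gene spans, away from the GENCODE 5′ ends, which were not searched.

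Per transcript length, Atf4 and Ddit3 were by far the most abundant members in both chambers. The median of Atf4 was 54.8 TPM over the 18 ventricular libraries and 62.4 TPM over the 18 atrial libraries, and that of Ddit3 was 31.0 and 47.8 TPM. In ventricles the medians of Mthfd2 (2.85 TPM), Chac1 (2.55 TPM), Gdf15 (2.01 TPM), Trib3 (1.92 TPM), Asns (1.36 TPM), Phgdh (1.24 TPM) and Psat1 (1.02 TPM) followed, and the ranges of neighbours in this order overlapped. In atria the order below Ddit3 was Psat1 (6.43 TPM), Mthfd2 (3.46 TPM), Phgdh (3.13 TPM), Chac1 (2.71 TPM), Asns (2.67 TPM), Trib3 (2.45 TPM) and Gdf15 (0.410 TPM). Below Psat1, the ranges of neighbours overlapped except that of Gdf15, from 0.230 to 1.06 TPM, which lay wholly below that of Trib3. Fgf21, a hormone that heart muscle can secrete under mitochondrial stress, was near the floor: 0 to 3 counts per library, 25 in all, and 0 in 21 of 36 libraries. A difference in Fgf21 between cohorts was not detectable at this depth.

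**Figure D1:**
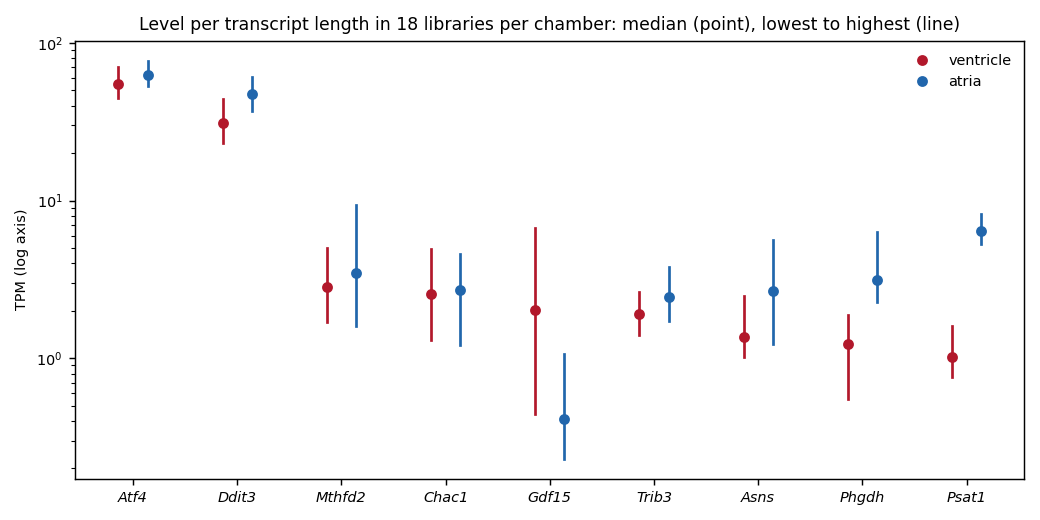
TPM (log axis) of 9 members in ventricle (red) and atria (blue), with the median of 18 libraries as a point and the lowest to highest library as a line, ordered by the ventricular median. Psat1 has a ventricular range of 0.760 to 1.60 TPM and an atrial range of 5.31 to 8.17 TPM, and Gdf15 has medians of 2.01 and 0.410 TPM.

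The main question was whether repeat RNA, its withdrawal or added MBNL moved these genes. Each cohort was compared with +dox in each chamber by edgeR's quasi-likelihood test over all 19231 genes, with calls made where p, adjusted by Benjamini-Hochberg, was below 0.05 and the change at least 1.5-fold. In ventricles, 1 of 9 members was called in –dox (7.60% of all genes), 1 in +/–dox (6.60%), 1 in MBNL1 (2.66%), 0 in MBNL2 (1.52%) and 0 in MBNL1+MBNL2 (2.65%). In atria, 4 were called in –dox (5.23% of all genes), 1 in +/–dox (3.99%), 0 in MBNL1 (0.130%), 0 in MBNL2 (0.00520%) and 0 in MBNL1+MBNL2 (0.260%). Outside the atrial –dox cohort the counts were 1 or 0 of 9, and 1 gene is no result about the members as a set. Where edgeR called 0, the members at an unadjusted p below 0.05 numbered 0 in ventricular MBNL2 (DESeq2 0, limma voom 0), 1 in ventricular MBNL1+MBNL2 (DESeq2 0, voom 0), 4 in atrial MBNL1 (DESeq2 1, voom 2), 1 in atrial MBNL2 (DESeq2 0, voom 0) and 5 in atrial MBNL1+MBNL2 (DESeq2 1, voom 1). The share of all genes is not given for counts at an unadjusted p, by DESeq2 or by voom, here and below. Nothing about the members as a set is read from those counts. The –dox and +dox libraries of a member did not overlap for 4 of 9 members in ventricles (33.6% of all genes) and 5 in atria (36.6%), and those of +/–dox and +dox for 4 (38.0%) and 3 (34.1%), so these shares were near the background. The share over all genes is not given for the MBNL cohorts, so this statement does not cover them. The median log2 fold change of the 9 members was -0.14 in ventricular –dox and 0.71 in atrial –dox, against 0.01 and 0.03 over all genes tested. Medians of the other cohorts are not given here, so the atrial shift is not read as particular to –dox.

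**Figure D2:**
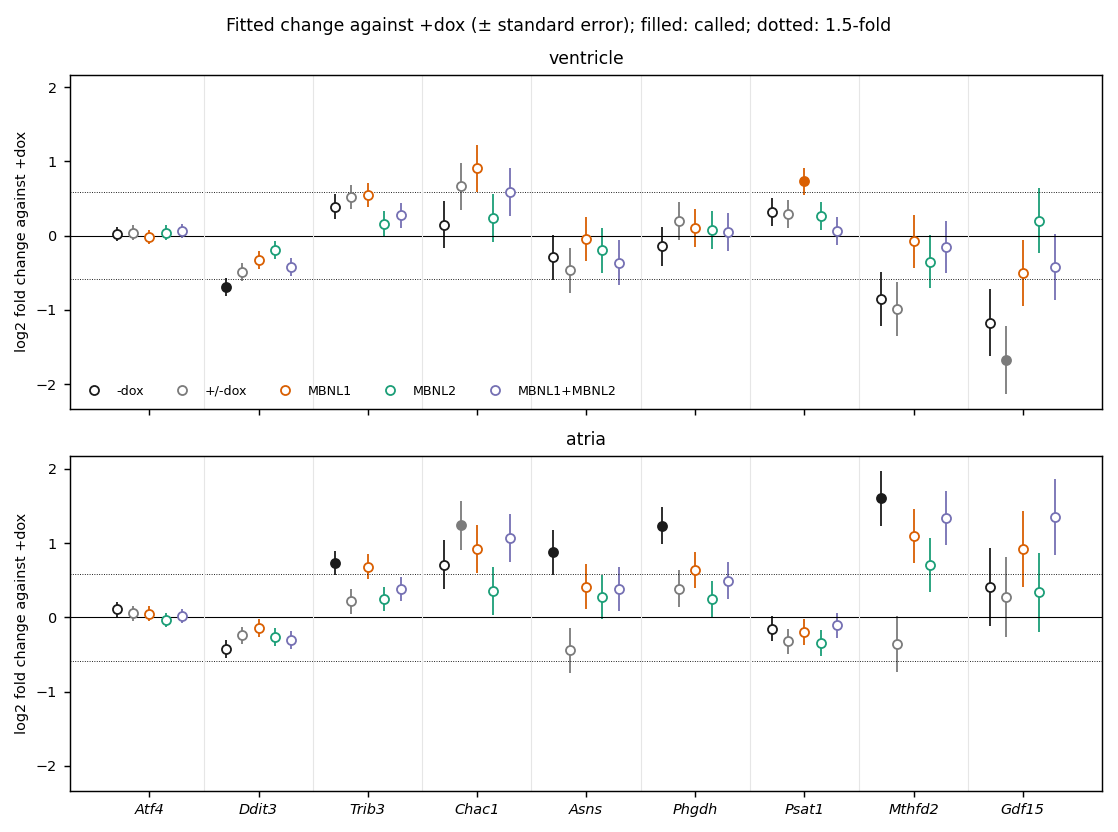
Fitted log2 fold change against +dox (± standard error) of 9 members in ventricle (top) and atria (bottom), by cohort. Filled points are called and dotted lines mark 1.5-fold. Asns, Phgdh, Mthfd2 and Trib3 are called in atrial –dox, and Atf4 stays near 0 throughout.

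Atf4 itself, the transcription factor (chr15:80255184-80257541, plus strand, as annotated in mm10 here and for the genes that follow), was called in no comparison of cohorts. Its CPM (counts scaled to library size with TMM factors, not to length) in ventricles were 73.6, 73.0 and 69.5 in +dox and 63.7, 77.2 and 78.3 in –dox. In atria they were 60.1, 54.1 and 58.1 in +dox and 59.2, 66.2 and 60.1 in –dox. The groups overlapped in both chambers. The log2 fold change of –dox against +dox was 0.02 ± 0.10 (SE) in ventricles and 0.11 ± 0.10 in atria, with adjusted p of 0.917 and 0.513. The 10 fitted differences of Atf4 from +dox, which share the +dox libraries of each chamber, lay between -0.04 and 0.11. Levels of mRNA do not report ATF4 protein.

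Ddit3, which encodes the pro-apoptotic transcription factor CHOP, was lower in ventricles of –dox than of +dox mice. The CPM were 25.7, 27.2 and 19.0 in +dox, 15.1, 16.1 and 13.5 in –dox, and 16.7, 19.0 and 15.4 in +/–dox. All –dox libraries lay below all +dox libraries, whereas +/–dox reached the lowest +dox library. Ddit3 fell by 0.69 ± 0.12 on the log2 scale in –dox (adjusted p = 0.000117). The +/–dox difference of -0.49 ± 0.12 passed the p threshold but was smaller than 1.5-fold (adjusted p = 0.00344), as was that of MBNL1+MBNL2 at -0.42 ± 0.12 (adjusted p = 0.0263). MBNL1 and MBNL2 had -0.32 (adjusted p = 0.0876) and -0.19 (adjusted p = 0.364). The MBNL1+MBNL2 libraries, at 16.6 to 19.7 CPM, are all of the smaller library set, as is +dox replicate 3 at 19.0 CPM. Their difference from +dox is thus confounded in part with the library set. In atria the CPM were 23.5, 24.8 and 20.2 in +dox and 18.8, 16.0 and 16.0 in –dox. These groups did not overlap either, and the difference was -0.43 ± 0.12 (adjusted p = 0.0127), also below 1.5-fold. Without ventricular +dox replicate 3, the lowest +dox library, the +/–dox change was called too, at -0.64 (adjusted p = 0.000342). Red blood cell markers (Hba-a1, Hba-a2, Hbb-bs and Hbb-bt) summed to 392 to 1237 TPM in ventricular +dox, 1834 to 4130 TPM in –dox and 2345 to 2923 TPM in +/–dox, endothelial markers to 124 to 136, 154 to 197 and 159 to 179 TPM, and brown fat markers to 10.3 to 15.9, 19.2 to 22.7 and 17.0 to 21.0 TPM. The brown fat sum in ventricles was Cidea almost alone, at 10.3 to 22.7 TPM over all ventricular libraries. Ucp1 had at most 0.05 TPM there and was 0 in 13 libraries. The part of these lists in the ventricular results was not tested. The difference between the chambers in the –dox change of Ddit3 was -0.25 ± 0.17 (adjusted p = 0.646). The Ddit3 symbol covers 2 annotated genes in GENCODE M21 (chr10:127290774-127296288 and chr10:127290829-127293753, plus strand), and the deposited table gives 1 row. Its 3′ end overlaps Mars on the other strand.

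Trib3 (chr2:152337422-152344032, minus strand) encodes a pseudokinase that restrains ATF4 and is itself an ATF4 target. In atria its CPM were 2.01, 2.38 and 1.93 in +dox and 3.51, 3.46 and 3.52 in –dox, and the groups did not overlap. Trib3 rose by 0.73 ± 0.16 (adjusted p = 0.00218), one of the 4 atrial calls. The atrial MBNL1 libraries had 4.15, 3.07 and 2.94 CPM, all above +dox, with a difference of 0.68 ± 0.16 that missed the threshold (adjusted p = 0.0596). The other atrial differences were 0.22 in +/–dox, 0.25 in MBNL2 and 0.38 in MBNL1+MBNL2. In ventricles Trib3 was 2.29, 3.06 and 2.29 CPM in +dox, 3.86, 3.71 and 3.41 CPM in +/–dox and 4.38, 2.96 and 3.80 CPM in MBNL1. These differences of 0.52 ± 0.16 (adjusted p = 0.0213) and 0.54 ± 0.16 (adjusted p = 0.0338) passed the p threshold and fell short of 1.5-fold. Without +dox replicate 2, the highest +dox library, both were called, at 0.68 (adjusted p = 0.00921) and 0.70 (adjusted p = 0.0196). That of MBNL1 was also called without MBNL1 replicate 2, at 0.68 (adjusted p = 0.0154).

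Chac1 (chr2:119351229-119354381, plus strand) encodes a γ-glutamylcyclotransferase that degrades glutathione. It was called once against +dox, in atrial +/–dox. The CPM were 1.12, 1.17 and 1.82 in +dox and 4.12, 3.42 and 2.13 in +/–dox, without overlap, and Chac1 rose by 1.24 ± 0.32 (adjusted p = 0.0101). The call was lost when atrial +dox replicate 1 or 2 or +/–dox replicate 1 was left out, with adjusted p up to 0.0724. Between the same cohorts macrophage markers (+dox 229 to 284 TPM, +/–dox 161 to 210 TPM), cardiomyocyte markers (25863 to 26833 and 28366 to 30323 TPM), atrial markers (31212 to 33511 and 44757 to 49450 TPM) and ventricular markers (327 to 391 and 409 to 682 TPM) did not overlap either, and their part in the result was not tested. The –dox atria had 2.25, 1.92 and 2.53 CPM, all above +dox, with a difference of 0.71 ± 0.32 (adjusted p = 0.139). In ventricles MBNL1 had the highest values, 6.36, 3.32 and 3.66 CPM against 2.80, 2.47 and 1.83 CPM in +dox. Its largest value came from the library that stood apart. The difference was 0.91 ± 0.32 (adjusted p = 0.0665).

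**Figure D3:**
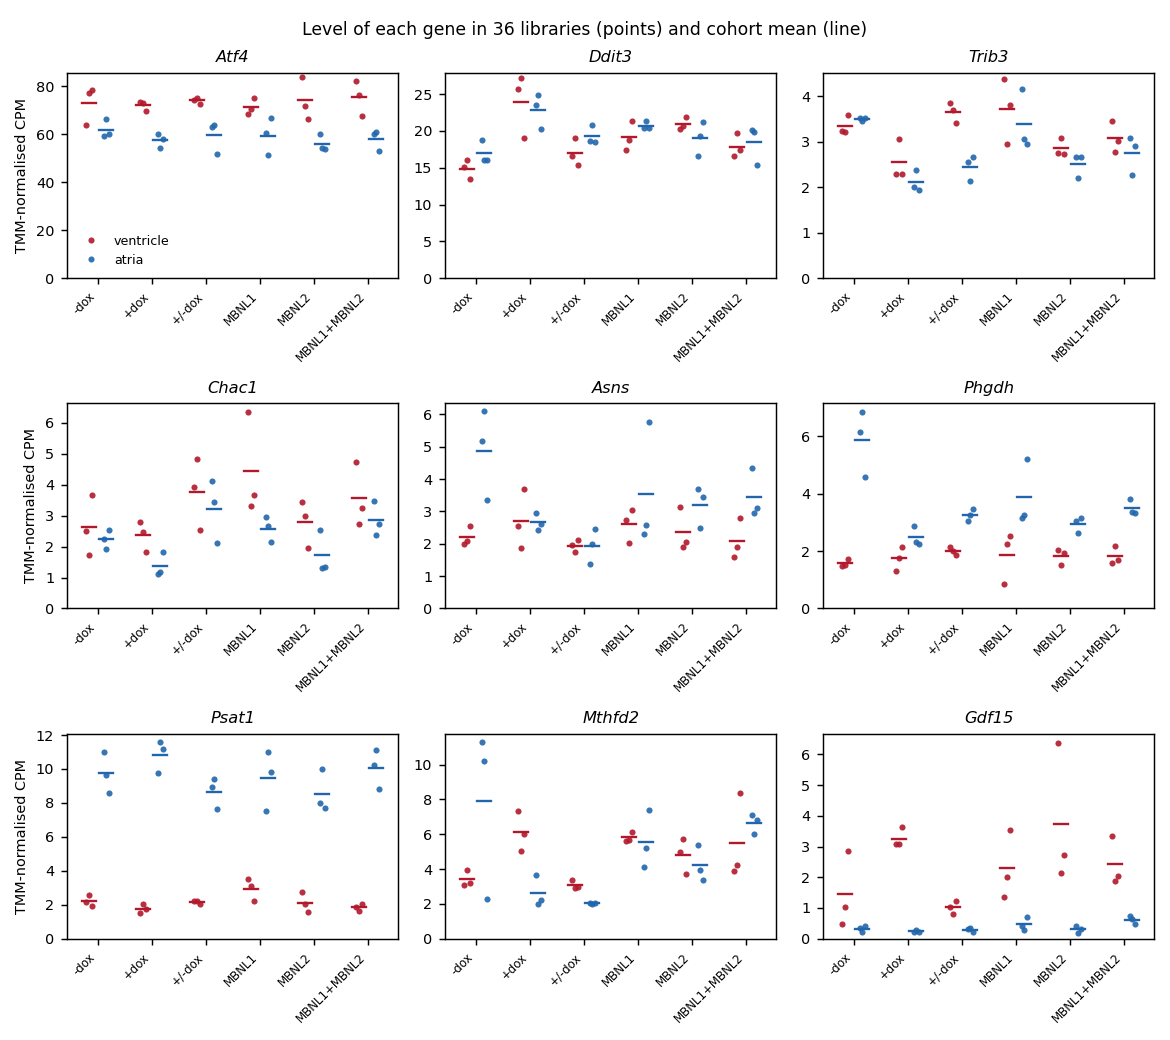
CPM of 9 members in each of the 36 libraries (points) with the mean of 3 libraries (line), by cohort, in ventricle (red) and atria (blue). Mthfd2 shows 2 high atrial –dox libraries (11.3 and 10.2 CPM) and 1 low one (2.26 CPM), and Psat1 separates the chambers in all cohorts.

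Asns, Phgdh and Mthfd2 made up the rest of the atrial –dox calls, and all lay above +dox. Asns (chr6:7675169-7693254, minus strand) encodes asparagine synthetase, a classical ATF4 target whose promoter element is printed above. Its atrial CPM were 2.95, 2.42 and 2.61 in +dox and 5.19, 6.10 and 3.34 in –dox, with no overlap. Asns rose by 0.87 ± 0.30 (adjusted p = 0.0427), close to the threshold: the call held in 1 of 6 fits that left out a library, with adjusted p up to 0.191, and was also lost without the low-count filter (adjusted p = 0.0746) and with atrial libraries alone (adjusted p = 0.0621). In ventricles the Asns differences from +dox lay between -0.47 and -0.05 and none passed.

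Phgdh (chr3:98313170-98339990, minus strand) encodes phosphoglycerate dehydrogenase, which commits glycolytic carbon to serine synthesis. Its atrial CPM were 2.89, 2.33 and 2.24 in +dox and 6.15, 6.84 and 4.57 in –dox, so the lowest –dox library had more than any +dox library. Phgdh rose by 1.23 ± 0.25 (adjusted p = 0.000682), and the call held in all 6 fits that left out a library, with adjusted p of 0.000679 to 0.00669. Atrial MBNL1, +/–dox and MBNL1+MBNL2 libraries also all lay above the +dox libraries, at 3.14, 3.26 and 5.19 CPM, 3.03, 3.24 and 3.46 CPM, and 3.80, 3.37 and 3.31 CPM. Their differences of 0.64, 0.38 and 0.49 did not pass (adjusted p = 0.427, 0.356 and 0.521). In ventricles Phgdh was 1.32, 1.77 and 2.15 CPM in +dox and 1.50, 1.51 and 1.72 CPM in –dox, with a difference of -0.14 ± 0.26 (adjusted p = 0.752). Phgdh counts were fractional in 18 libraries, which RSEM gives where reads are shared between genes, and the pseudogene Phgdh-ps1 had 0 to 7 counts.

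Mthfd2 (chr6:83305691-83325908, minus strand), a mitochondrial enzyme of one-carbon metabolism, had –dox differences of opposite sign in the chambers. In atria its CPM were 3.64, 1.97 and 2.24 in +dox and 11.3, 10.2 and 2.26 in –dox. The first and second –dox libraries were far above all +dox libraries, and the third lay within their range. Mthfd2 rose by 1.60 ± 0.36 (adjusted p = 0.00283). The change was 2.04 without –dox replicate 3 (adjusted p = 5.07e-06) and 1.25 without –dox replicate 1 (adjusted p = 0.0294), the lowest of the 6 fits that left out a library. In ventricles its CPM were 7.31, 5.05 and 6.03 in +dox, 3.06, 3.93 and 3.22 in –dox, and 3.39, 2.93 and 2.94 in +/–dox. Both dox-free cohorts lay wholly below +dox there. The ventricular differences of -0.85 ± 0.36 (adjusted p = 0.0991) and -0.99 ± 0.36 (adjusted p = 0.0516) missed the threshold. The first was called with ventricular libraries alone (adjusted p = 0.0196), and the second with ventricular libraries alone (0.00868), with the library set as a term (0.0473) and by DESeq2 (0.0174). The test of the difference between chambers passed, however: the –dox change in ventricle minus that in atria was -2.45 ± 0.51 on the log2 scale (adjusted p = 0.0126), which was 1 of 9 members against 0.764% of all genes called in this test. With the replicate number as a block, since same-numbered ventricular and atrial libraries of –dox and of +dox deviated together, it was -2.24 (adjusted p = 0.0153), and Phgdh was then also called at -1.35 (adjusted p = 0.0239). Without the block the Phgdh difference was -1.38 ± 0.36 (adjusted p = 0.0508). The Mthfd2 chamber difference lost its call when atrial +dox replicate 2, –dox replicate 1 or –dox replicate 2 was left out, with adjusted p up to 0.0571. For the +/–dox cohort 0 of 9 members passed this test, against 0.489% of all genes (2 at an unadjusted p below 0.05, and 0 by DESeq2 and by voom). With the replicate block Gdf15 was called there, at -1.96 (adjusted p = 0.0402). Same-numbered +/–dox chambers did not all deviate together (lowest r 0.063), however, so replicate numbers were not accepted as pairing in that cohort.

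Within each set of libraries, the atrial Mthfd2 difference was present in the larger set (11.3 and 10.2 against 3.64 and 1.97 CPM) and not in the smaller set, which holds 1 library of each of these cohorts (2.26 against 2.24 CPM). Phgdh, Trib3 and Asns were higher in –dox in both sets, at 4.57, 3.52 and 3.34 CPM in the smaller set against 2.24, 1.93 and 2.61 CPM. With the set as a term, the 4 atrial calls held, with Mthfd2 at 1.53 (adjusted p = 0.00386). White fat markers (Adipoq, Plin1 and Lep) summed to 0.300, 1.24 and 6.53 TPM in atrial +dox replicates 1 to 3 and to 1.17, 10.5 and 17.5 TPM in –dox. The –dox library with the highest Mthfd2 therefore had the least fat signal of its cohort, and the one with the most fat signal had the lowest Mthfd2. That last library, –dox replicate 3, also stood apart from replicates 1 and 2 in other lists. Its ventricular markers summed to 1104 TPM against 301 and 295 TPM, and its red blood cell markers to 2884 TPM against 691 and 759 TPM. Endothelial markers (Pecam1, Cdh5, Kdr and Vwf) summed to 193 to 221 TPM in atrial +dox and 238 to 291 TPM in –dox. Fibroblast markers summed to 1018 to 1256 and 1344 to 1482 TPM, cardiomyocyte markers to 25863 to 26833 and 27690 to 28518 TPM, atrial markers to 31212 to 33511 and 43316 to 47485 TPM, brown fat markers to 10.4 to 12.9 and 14.8 to 18.9 TPM, and T and B cell markers to 2.02 to 3.74 and 1.44 to 1.71 TPM. The white fat, ventricular and red blood cell ranges of the cohorts overlapped and the others named did not. By medians over all atrial libraries, the brown fat signal was Cidea (14.85 TPM) rather than Ucp1 (0.005 TPM). The part of these lists in the 4 atrial results was not tested.

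Mthfd2 was also the only member that lay wholly above +/–dox in every MBNL cohort in atria. Its atrial CPM were 2.04, 2.02 and 2.06 in +/–dox, 4.10, 5.20 and 7.41 in MBNL1, 5.41, 3.96 and 3.39 in MBNL2, and 7.09, 6.01 and 6.82 in MBNL1+MBNL2. All libraries given a vector lay above all +/–dox libraries. The change was 1.45 ± 0.37 in MBNL1 (adjusted p = 0.0211), 1.06 ± 0.37 in MBNL2 (adjusted p = 0.0632) and 1.70 ± 0.37 in MBNL1+MBNL2 (adjusted p = 0.00489), and in each of the first and last cohorts it was the 1 member called, against 1.21% and 1.71% of all genes. In MBNL2 against +/–dox 0 were called (3.24% of all genes), with 3 at an unadjusted p below 0.05 and 2 each by DESeq2 and voom. The MBNL1+MBNL2 call held in all 6 fits without 1 library and the MBNL1 call in 1 of 6, with adjusted p up to 0.104. Against +dox, Mthfd2 in MBNL1+MBNL2 differed by 1.34 ± 0.36 (adjusted p = 0.0926; called with the library set as a term at 1.59, adjusted p = 0.0448, and by DESeq2 at 1.35, adjusted p = 0.00854) and in MBNL1 by 1.09 ± 0.36 (adjusted p = 0.286). The brown fat markers Ucp1 and Cidea summed to 16.5 to 42.3 TPM in atrial MBNL1+MBNL2 and 11.4 to 15.2 TPM in +/–dox. Over all atrial libraries Ucp1 had a median of 0.005 TPM and a highest value of 15.85 TPM, with Cidea at 9.9 to 26.49 TPM. Macrophage markers were also higher in MBNL1+MBNL2 (220 to 320 against 161 to 210 TPM), and cardiomyocyte (23711 to 26398 against 28366 to 30323 TPM), red blood cell (230 to 1036 against 1086 to 1411 TPM) and ventricular markers (307 to 360 against 409 to 682 TPM) were lower. In MBNL1, cardiomyocyte (26628 to 28052 TPM), atrial (37848 to 41989 against 44757 to 49450 TPM) and red blood cell markers (477 to 980 TPM) lay below +/–dox. The part of these lists in the results was not tested. Other members lay wholly above +/–dox in some atrial MBNL cohorts, Trib3 in MBNL1 and Gdf15 in MBNL1+MBNL2. Asns did so in MBNL2 (2.49 to 3.69 CPM) and MBNL1+MBNL2 (2.95 to 4.33 CPM), against 1.39 to 2.46 CPM in +/–dox. Voom called Asns in both (adjusted p = 0.046 and 0.034), and called Chac1 lower in MBNL2. The share of all genes without overlap is not given for these comparisons. The atrial –dox and +/–dox cohorts were compared as well: 0 of 9 members and 0.0104% of all genes were called, with 4 members at an unadjusted p below 0.05, 2 by DESeq2 (Asns and Mthfd2) and 3 by voom (Asns, Mthfd2 and Phgdh). The Mthfd2 difference there was 1.96 ± 0.37 (adjusted p = 0.0610), and without –dox replicate 3 it was 2.40 (adjusted p = 1.04e-05).

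Psat1 (chr19:15904678-15947337, minus strand) encodes phosphoserine aminotransferase, the enzyme after Phgdh in serine synthesis. Its ventricular CPM were 1.53, 2.04 and 1.75 in +dox and 3.52, 3.13 and 2.19 in MBNL1, without overlap. Psat1 rose by 0.73 ± 0.18 in MBNL1 (adjusted p = 0.0119). The highest value belonged to the library that stood apart, and without it the difference was 0.58 (adjusted p = 0.0758). The call was also lost without +dox replicate 1, with ventricular libraries alone (adjusted p = 0.0709) and with voom weights (adjusted p = 0.173). In atria Psat1 did not follow Phgdh. Its CPM were 9.76, 11.6 and 11.2 in +dox and 11.0, 9.66 and 8.56 in –dox, a difference of -0.15 ± 0.17 (adjusted p = 0.602).

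Gdf15 (chr8:70629393-70632456, minus strand), a secreted stress hormone, was the member with the widest spread in ventricles. Its CPM were 3.09, 3.07 and 3.62 in +dox, 0.476, 1.04 and 2.86 in –dox, and 1.02, 0.813 and 1.23 in +/–dox. Both dox-free cohorts lay wholly below +dox, the +/–dox libraries closely grouped and the –dox libraries far apart. Gdf15 fell by 1.67 ± 0.46 in +/–dox (adjusted p = 0.00878), a call that held in all 6 fits without 1 library, with adjusted p of 0.0169 to 0.0482. With ventricular libraries alone its adjusted p was 0.0468, also close to the threshold. The –dox difference of -1.17 ± 0.45 missed the threshold (adjusted p = 0.0639) and passed without –dox replicate 3, at -2.10 (adjusted p = 0.00220). It was also called with the library set as a term (-1.33, adjusted p = 0.0230), with the replicate block (-1.27, adjusted p = 0.0401), with voom (-1.78, adjusted p = 0.00156) and by DESeq2 (-1.15, adjusted p = 0.0474). Cardiomyocyte markers summed to 22916 to 24376 TPM in +dox and 27641 to 28926 TPM in +/–dox. That library also had the highest red blood cell markers of the ventricular libraries, at 4130 TPM, and the only lung marker sum above 1 TPM, at 3.22. The part of these lists in the results was not tested. The ventricular MBNL cohorts ranged widely: 1.35, 2.01 and 3.55 CPM in MBNL1, 6.37, 2.15 and 2.73 CPM in MBNL2, and 3.36, 1.89 and 2.06 CPM in MBNL1+MBNL2. Each of these ranges overlapped that of +dox, and their differences of -0.50, 0.20 and -0.42 did not pass. Against +/–dox, Gdf15 rose by 1.87 ± 0.46 in MBNL2 (adjusted p = 0.0137), the 1 member called there against 1.57% of all genes. The call was lost without MBNL2 replicate 1, the library at 6.37 CPM, where the difference was 1.25 (adjusted p = 0.174), and without +/–dox replicate 1 (adjusted p = 0.0615) or 2 (adjusted p = 0.0872). Macrophage markers summed to 123 to 140 TPM in MBNL2 and 80.2 to 111 TPM in +/–dox, cardiomyocyte markers to 24417 to 26476 and 27641 to 28926 TPM, and red blood cell markers to 368 to 1887 and 2345 to 2923 TPM, and their part in the result was not tested. In MBNL1 and MBNL1+MBNL2 against +/–dox, and in –dox against +/–dox, 0 members were called in ventricles, against 0.868%, 0.530% and 0.0312% of all genes. The members at an unadjusted p below 0.05 were 3, 2 and 0 there, DESeq2 called 0 in each, and voom called 1, 0 and 0. In atria Gdf15 was 0.186 to 0.740 CPM in all libraries. The MBNL1+MBNL2 libraries there, at 0.482 to 0.740 CPM, all lay above the +dox libraries, at 0.215 to 0.290 CPM, but Gdf15 was not called. The ranges of the other atrial cohorts overlapped that of +dox, and atrial counts of Gdf15 were low.

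The chambers were compared within the –dox and +dox cohorts. In –dox, 5 of 9 members were called between ventricle and atria (24.9% of all genes), and in +dox 4 of 9 (25.0%). Psat1 was lower in ventricles by 2.14 ± 0.18 on the log2 scale in –dox (adjusted p = 3.29e-11) and by 2.61 ± 0.19 in +dox (adjusted p = 4.82e-13), and no ventricular library of any cohort reached the lowest atrial one (3.52 against 7.50 CPM). Gdf15 was higher in ventricles by 2.16 ± 0.50 in –dox (adjusted p = 0.000629; 1.23 without ventricular –dox replicate 3, adjusted p = 0.0365) and by 3.74 ± 0.51 in +dox (adjusted p = 4.42e-07), the latter from 0.242 ± 0.041 to 3.26 ± 0.31 CPM (mean ± SD, n = 3). Phgdh, the other serine synthesis gene, was lower in ventricles by 1.89 ± 0.26 in –dox (adjusted p = 3.18e-07), and in +dox the difference was -0.51 ± 0.25 (adjusted p = 0.101). Asns was lower in ventricles by 1.15 ± 0.30 in –dox (adjusted p = 0.00258), with a difference of 0.02 ± 0.30 in +dox (adjusted p = 0.966). Mthfd2 was lower in –dox ventricles than atria by 1.22 ± 0.36 (adjusted p = 0.00735) and higher in +dox ventricles by 1.23 ± 0.36 (adjusted p = 0.00686), which is the same chamber difference seen from the other side. The –dox call was lost without atrial –dox replicate 1, at -0.87 (adjusted p = 0.0742). Chac1 was higher in +dox ventricles by 0.80 ± 0.32 (adjusted p = 0.0461) and this was lost without replicate 1 or 2 of either chamber, with adjusted p up to 0.160.

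The scale matters between chambers. The median log2 difference, ventricle minus atria, over all genes tested was -0.57 in –dox and -0.54 in +dox on the TPM scale, and -0.03 and -0.0036 on the TMM scale. On the TPM scale all called members kept the sign given above. Atf4, Ddit3, Trib3 and Asns in +dox and Atf4 and Chac1 in –dox, none of them called, changed sign between the scales: Atf4 in +dox was 0.33 higher in ventricles on the TMM scale and -0.21 on the TPM scale, which is above the median gene on both.

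To ask whether the members varied together between animals of a cohort, correlations were computed between the 36 pairs of the 9 tested members in each chamber, on log2 CPM after subtraction of the cohort mean, over 18 libraries with 100000 permutations within cohorts (two-sided) and adjustment over all 72 pairs. In ventricles 0 of 36 pairs passed (2 at an unadjusted p below 0.05, 0 by Spearman's rho), and the median r was 0.0447. In atria 1 of 36 passed, and the median r was 0.0519. The pair was Asns and Phgdh, with Pearson's r = 0.929 (permutation p = 0.00023, adjusted p = 0.0166) and Spearman's rho = 0.913 (permutation p = 0.00027, adjusted p = 0.0194). Without the 2 libraries farthest from the median of Asns, MBNL1 replicate 3 and –dox replicate 3, r was 0.875, and within the larger library set, over 10 libraries, it was 0.833. The adjusted p rose to 0.0518 without MBNL1 replicate 3 or without MBNL2 replicate 2. Mthfd2 went with both in atria, at r = 0.631 with Asns (permutation p = 0.00681, adjusted p = 0.245) and 0.734 with Phgdh (permutation p = 0.0194, adjusted p = 0.312), but did not pass. In ventricles the largest r was 0.743, between Atf4 and Gdf15 (permutation p = 0.0217, adjusted p = 0.312). For this pair r was 0.924 within the larger library set, over 10 libraries. That set holds 2 libraries of each cohort in it, so after centring each pair of deviations is an exact mirror. Values of r within that set are descriptions only, and reached -0.959 for Atf4 with Psat1 and 0.835 for Chac1 with Gdf15 in atria. Centring by cohort and replicate number (a replicate block) gave Atf4 with Gdf15 an r of 0.958 (adjusted p = 0.00900 by permutation), and Trib3 with Chac1 then passed as well, at 0.614 (adjusted p = 0.0223). Replicate numbers were not treated as pairing within a chamber, and the permutations did not keep the replicate centring. No result is therefore read from these 2 p-values. Ddit3 and Trib3 had r = 0.0432 in ventricles and -0.113 in atria.

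**Figure D4:**
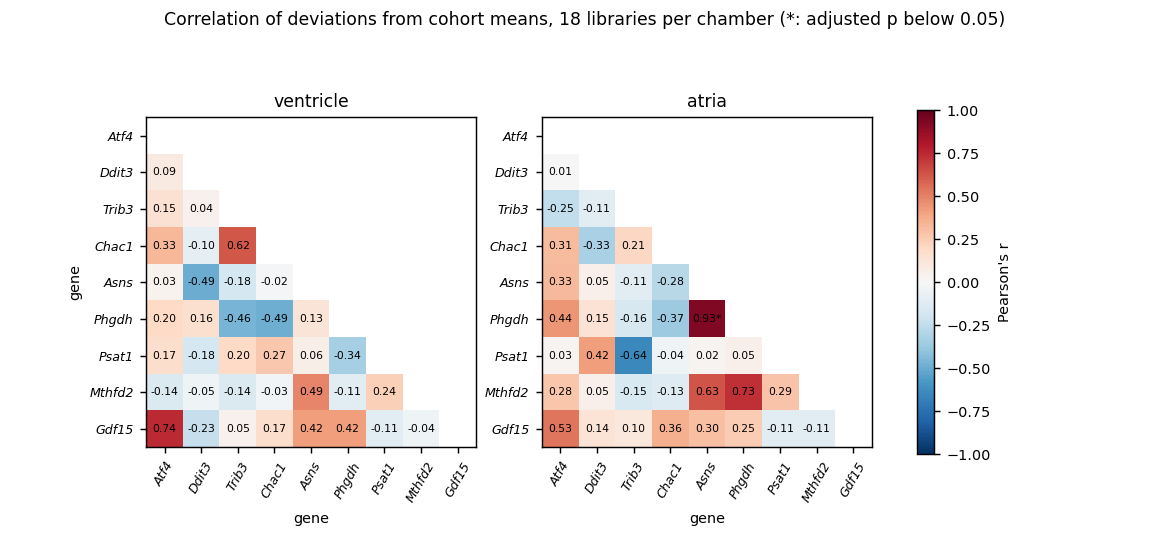
Pearson's r between members over 18 ventricular (left) and 18 atrial (right) libraries, as deviations from cohort means. An asterisk marks the pair with an adjusted p below 0.05, Asns and Phgdh in atria (r = 0.929).

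Outside the members, the genes whose log2 CPM over the 18 libraries of a chamber was most like the mean standardised level of the 9 members included, in ventricles, Anxa4 (r = 0.770), Mettl27 (0.726), Gm30873 (0.724) and Asap1 (0.713). In atria they were Herc4 (0.806), Hsp90aa1 (0.797), Npepps (0.792), Gm15459 (0.767) and 2410137M14Rik (0.758). These are descriptions over the same libraries, which share the cohort differences. The members themselves ranged from 0.139 (Trib3) to 0.661 (Gdf15) in ventricles and from -0.169 (Ddit3) to 0.777 (Phgdh) in atria.

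The wider pathway was followed in 65 further genes: kinases, phosphatase subunits and exchange factor of eIF2 (14 genes), partner transcription factors (7), amino acid transporters (9), cytosolic aminoacyl-tRNA synthetases (13), serine, proline and folate enzymes (12) and other ATF4 targets (10). Of these 64 were tested, all but Slc7a3. In ventricles 2 rose and 5 fell in –dox (7.60% of all genes called in either direction), 1 rose and 5 fell in +/–dox (6.60%), 1 rose and 2 fell in MBNL1 (2.66%), 1 rose and 1 fell in MBNL2 (1.52%), and 1 fell in MBNL1+MBNL2 (2.65%). In atria 3 fell in –dox (5.23%), 2 rose and 3 fell in +/–dox (3.99%), 1 fell in MBNL1+MBNL2 (0.260%), and 0 were called in MBNL1 (0.130%) and MBNL2 (0.00520%). Nothing about the pathway as a set is read from these counts. The median log2 fold change of the 64 lay between -0.09 and 0.02 in these comparisons. The partner transcription factors (Atf3, Atf5, Cebpb, Cebpg, Nupr1, Atf6 and Xbp1) had 0 calls of 7 in any comparison with +dox.

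Shmt1, the cytosolic serine hydroxymethyltransferase that links serine to the folate cycle, had the largest change against +dox of the 64. Its ventricular CPM were 40.8 ± 1.20 in +dox, 7.71 ± 1.07 in –dox, 11.3 ± 1.69 in +/–dox, 17.1 ± 3.04 in MBNL1, 17.6 ± 5.59 in MBNL2 and 14.7 ± 3.38 in MBNL1+MBNL2 (mean ± SD, n = 3 each). No library of the other cohorts reached the lowest +dox library (39.5 CPM). Shmt1 fell by 2.40 in –dox (adjusted p = 6.27e-10), by 1.85 in +/–dox (adjusted p = 7.43e-08), by 1.26 in MBNL1 (adjusted p = 0.000137), by 1.21 in MBNL2 (adjusted p = 0.000409) and by 1.47 in MBNL1+MBNL2 (adjusted p = 1.16e-05), and these calls held in all fits tried. In atria it fell by 2.01 in –dox (adjusted p = 2.78e-08) and by 1.60 in +/–dox (adjusted p = 1.45e-06), from 14.8 ± 1.27 CPM in +dox to 3.68 ± 0.335 and 4.90 ± 0.969 CPM. The atrial MBNL1+MBNL2 change of -0.77 (adjusted p = 0.0495) was lost in all 6 fits without 1 library, with adjusted p up to 0.260. Atrial Mthfd2 and Shmt1 thus differed between –dox and +dox in opposite directions.

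The other calls against +dox were in 9 genes. Aldh1l2, the mitochondrial formyltetrahydrofolate dehydrogenase, fell in –dox in ventricles (-0.84, adjusted p = 0.000173) and atria (-0.61, adjusted p = 0.00445) and in atrial +/–dox (-0.76, adjusted p = 0.000873). The atrial –dox call was lost without +dox replicate 2 or –dox replicate 2 or 3. Wars, the cytosolic tryptophanyl-tRNA synthetase, fell by 0.71 to 0.85 in –dox and +/–dox in both chambers, but its ventricular calls were lost without +dox replicate 3, which had 108 CPM where +dox replicate 2 had 51.8. Sesn2, a stress-induced inhibitor of mTORC1 signalling, fell in ventricular –dox (-0.83, adjusted p = 0.00236), +/–dox (-0.68, adjusted p = 0.0106) and MBNL1 (-0.79, adjusted p = 0.0102), the last of these not without the library that stood apart. Herpud1, a component of endoplasmic reticulum-associated degradation, rose in –dox ventricles (0.77, adjusted p = 7.47e-07) and in +/–dox ventricles (0.81, adjusted p = 4.08e-07) and atria (0.65, adjusted p = 1.73e-05), the last of these below 1.5-fold without +/–dox replicate 2. Slc6a9, a glycine transporter, rose in ventricular –dox (0.72, adjusted p = 0.00130), MBNL1 (0.60, adjusted p = 0.0158) and MBNL2 (0.72, adjusted p = 0.00588), and the MBNL1 call was lost without +dox replicate 3 or MBNL1 replicate 3. The remaining calls were 1 each: Eif2ak2, the double-stranded RNA-activated eIF2α kinase PKR, fell in ventricular +/–dox (-0.74, adjusted p = 0.00118), the cell cycle inhibitor Cdkn1a fell in ventricular +/–dox (-1.34, adjusted p = 0.0231), Gadd45a fell in ventricular –dox (-0.63, adjusted p = 0.0226), and Cth, which makes cysteine from cystathionine, rose in atrial +/–dox (0.85, adjusted p = 0.0361). Each of these 4 calls depended on single libraries. That of Eif2ak2 was lost without +dox replicate 3, that of Cdkn1a without +dox replicate 1 or +/–dox replicate 1 or 2, that of Gadd45a without +dox replicate 1 or 3 or –dox replicate 2 or 3, and that of Cth in 5 of 6 fits without 1 library, all but the one without +dox replicate 3.

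**Figure D5:**
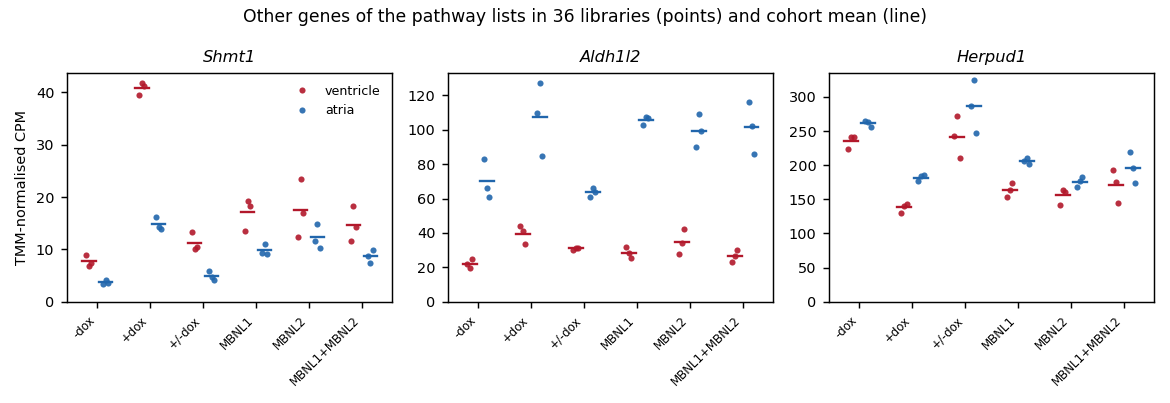
CPM of Shmt1, Aldh1l2 and Herpud1 in 36 libraries (points) with the mean of 3 libraries (line), by cohort, in ventricle (red) and atria (blue). Ventricular Shmt1 is 40.8 CPM in +dox and 7.71 to 17.6 CPM (means) in the other 5 cohorts.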

How the data were processed

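RNA from mouse ventricles and atria was sequenced by the authors as TruSeq stranded mRNA libraries (250 ng, 150 cycles, paired). The authors aligned reads with STAR 2.7.10b to mm10 with GENCODE M25 and counted with RSEM 1.3.1. Whether RSEM was run with a strand option is not given in the sources used here. The deposited table of expected counts and the deposited TPM table have 1 row per symbol, and 96.4% of symbols matched GENCODE M21, from which coordinates (mm10) were taken. Promoters came from RefSeq.

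Expected counts were rounded and analysed in R 4.3.3 with edgeR 4.0.16 (TMM, filterByExpr, quasi-likelihood, 12 group means, 36 libraries, no block), with Benjamini-Hochberg adjustment over 19231 genes. CPM for correlations had a prior count of 2. DESeq2 1.42.0 and limma 3.58.1 (voom, library weights) were alternatives, as were other size factors, no filter, no fold threshold, 1 chamber alone, library set, replicate block and leaving out each library. The alternative of leaving out the library that stood apart everywhere was chosen after the data were seen. On simulated counts the test was checked for recovery of known changes.

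Libraries of a group are biological replicates per the labels. In no group were 2 libraries alike within sampling noise. Replicate numbers were treated as pairing ventricle and atria in –dox (correlation of deviations 0.123 to 0.243) and +dox (0.152 to 0.257), where every same-numbered pair exceeded 0.1, and not within a chamber. Replicate 3 also follows the library set in these cohorts, so a shared mouse and a shared set cannot be told apart by these correlations. The block fit between chambers used the replicate numbers of every cohort, also of those that did not meet this rule. Totals were 55031987 to 97091184 counts per library, with a common biological variation of 17.4%. Gdf15 had as few as 16 counts in a library.

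The members, lists and tests were chosen with earlier results of these data known. Named were all members, the pathway genes called in at least 1 comparison with +dox, and the 5 genes most like the members in each chamber, of which 1 in ventricles is not reported here.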

Additional observations from a re-analysis of the deposited data

Results flagged for a closer look

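The –dox change of Mthfd2 was picked out because it differed between the chambers by the interaction test, at -2.45 on the log2 scale (ventricle minus atria, edgeR adjusted p = 0.0126). In ventricles the –dox libraries had 3.06, 3.93 and 3.22 CPM against 5.05 to 7.31 CPM in +dox, and in atria they had 11.3, 10.2 and 2.26 CPM against 1.97 to 3.64 CPM. Groups of 3 libraries are too small for the test of single outlying samples, which was not run.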

How the results depend on the processing

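Of 2942 values of the members under alternatives, 2849 stayed on the same side of the threshold, 36 lost a call, 57 gained one, 0 called values changed sign and 115 uncalled values did. The calls of Ddit3 in ventricular –dox, Gdf15 in ventricular +/–dox, Mthfd2, Phgdh and Trib3 in atrial –dox and Mthfd2 in atrial MBNL1+MBNL2 against +/–dox held in every fit tried. That of Gdf15 came close to the threshold, with adjusted p up to 0.0482. Counts of members called that moved by over 1.5 times under an alternative follow, and the cause was not tested. The share of all genes called under each alternative or left-out library is not given. These moves are therefore no result about the members as a set. Smaller moves were atrial –dox from 4 to 3 or 5, and the chambers from 5 to 6 in –dox and from 4 to 3 or 5 in +dox. Each group held 3 libraries.

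Ventricular –dox against +dox went from 1 to 2 with one chamber alone, the library set, the replicate block, voom and DESeq2. Ventricular +/–dox went from 1 to 3 without a fold threshold and to 2 with one chamber alone, the library set, voom and DESeq2. Ventricular MBNL1 went from 1 to 2 without a fold threshold, with the replicate block and with DESeq2, and to 0 with one chamber alone and voom. Ventricular MBNL1+MBNL2 went from 0 to 1 without a fold threshold. Atrial MBNL1 went from 0 to 2 with voom and 1 with DESeq2, and atrial MBNL1+MBNL2 from 0 to 1 with the library set, voom and DESeq2.

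Against +/–dox, ventricular MBNL1 went from 0 to 1 with voom and MBNL2 from 1 to 0 with one chamber alone. Atrial –dox went from 0 to 3 with voom and 2 with DESeq2, and atrial MBNL1 from 1 to 0 without the filter, with one chamber alone and with voom. Atrial MBNL2 went from 0 to 1 with one chamber alone and the replicate block and to 2 with voom and DESeq2, and atrial MBNL1+MBNL2 from 1 to 2 with voom. The chamber difference in the –dox change went from 1 to 2 without the filter, with the library set, replicate block, voom and DESeq2, and that in +/–dox from 0 to 1 (Gdf15, -1.96, adjusted p = 0.0402) with the replicate block. The +/–dox chambers did not meet the rule for pairing by replicate number. Correlated ventricular pairs went from 0 to 2 with the replicate block (Atf4 with Gdf15, Trib3 with Chac1), where the permutations did not keep the replicate centring.

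Leaving out 1 library gave 1 to 2 calls in ventricular –dox and in +/–dox, 0 to 3 in ventricular MBNL1, 3 to 4 in atrial –dox, 0 to 1 in atrial +/–dox, and 0 to 2 for the chamber difference in –dox. Against +/–dox it gave 0 to 1 in ventricular MBNL2 and in atrial –dox, MBNL1 and MBNL2. It gave 4 to 5 between chambers in –dox, 3 to 4 in +dox, and 0 to 1 correlated atrial pairs. Without ventricular MBNL1 replicate 1, an alternative chosen after seeing the data, the chamber difference in –dox had 2 calls, Mthfd2 and Phgdh (-1.38, adjusted p = 0.00538). Within a chamber, no comparison had every same-numbered pair correlated above 0.1, so replicate numbers were not treated as pairing there, although replicate 3 also follows the library set outside MBNL1+MBNL2.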
